A study of Homo sapiens with 6 samples.

Results

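The keratin genes were taken as the protein-coding rows of the deposited expression table whose symbol is KRT followed by a number and at most 1 letter from A to C. The rule found 55 genes among 58735 in the table, of which 29 code for type I keratins (those of chromosome 17 and KRT18) and 26 for type II keratins, on chromosome 12. RNA was sequenced from HaCaT, an established line of human skin keratinocytes that became immortal in culture without a transgene, labelled wild type. The groups were 3 control samples and 3 samples treated for 48 h with dacomitinib, an irreversible inhibitor of EGFR family tyrosine kinases, and the study set out to find pathways that differ between the groups. All 6 samples are 1 cell line in 1 growth medium with serum. The series' text attaches 0.1% DMSO to the treated cells. The sources used here give no dose, and for the controls neither a vehicle nor a time. They also do not tell separate cultures from repeat preparations, and a p-value therefore reflects only how these samples scatter, possibly for technical reasons. The 3 treated columns carry a letter found in no label, and dacomitinib was the only group left for them. The direction of every difference rests on that, and the numbers of those libraries only name them.

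Keratins are the intermediate filament proteins of epithelial cells. A filament is built from heterodimers of a type I (acidic) and a type II (basic to neutral) chain, so the genes are expressed in pairs that differ between epithelia and between layers of one epithelium. In epidermis, basal cells carry KRT5 with KRT14 and KRT15, and cells that leave the basal layer turn to KRT1 with KRT10. Wounded or activated epidermis makes KRT6A, KRT6B and KRT6C with KRT16 and KRT17. Simple epithelia use KRT8 with KRT18, joined by KRT7, KRT19 and KRT20, and the moist lining of mouth and oesophagus uses KRT4 with KRT13.

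Values are FPKM as deposited, that is, fragments per kilobase of gene in a library of standard size. Fragments recovered from them summed to 14960650 to 16179273 per library. Of the 55 keratin genes, 15 reached a mean of 1 FPKM over the 6 libraries, the limit for testing, with 9 of type I and 6 of type II. At an adjusted p of 0.05 (limma, two-sided), 6 of the 15 were higher and 6 lower with dacomitinib. Of those higher, KRT16 passed the limit only through the dacomitinib libraries. Of all 13748 genes tested, 60.2% passed, 25.4% higher and 34.8% lower, so most genes of these cells differed between the groups. The scaling between libraries matters here, since with TPM, which gives every library the same sum, the median log2 difference over the tested genes was 0.23 in place of -0.06. With TPM 7 keratin genes were higher and 4 lower, against 42.0% and 19.8% of all genes. The call and direction of 9 of the 15 genes was the same under all alternatives that tested them, 5 higher (KRT4, KRT80, KRT17, KRT7 and KRT9) and 4 lower (KRT18, KRT8, KRT6A and KRT14).

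**Figure D1:**
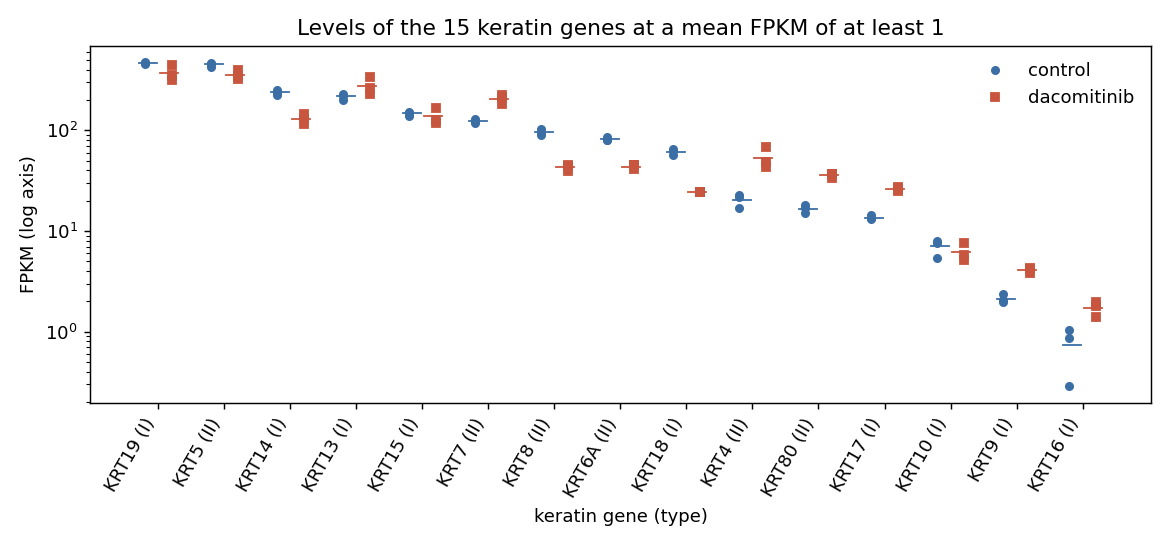
FPKM on a log axis of the 15 keratin genes at a mean of at least 1 FPKM, ordered by the control mean. Circles are the 3 control and squares the 3 dacomitinib libraries, with a line at each mean; for KRT18 the controls lie between 57.5 and 65.2 FPKM and the dacomitinib libraries between 24.2 and 24.4.

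The RNA carried the markers of keratinocytes. All 7 markers of that list were above 1 FPKM, and their sum was 1141 to 1211 FPKM in the controls and 931 to 1105 with dacomitinib. Markers of other skin cells were low, and the sums of 4 of the 5 lists differed between the groups without overlap. For scale, single genes with a fragment and a mean under 1 FPKM were higher in 14.6% and lower in 4.74% without overlap. The sum of 4 endothelial markers was 1.87 to 2.20 FPKM in the controls and 10.6 to 13.5 with dacomitinib. Most of it was CDH5, at a mean of 1.15 and 10.0 FPKM, while CLDN5 was at 0.0404 and listed at 0. The sum of 6 fibroblast markers was 0.853 to 1.21 and 2.28 to 3.62, with COL1A2 and PDGFRA at 0 fragments in all libraries. By mean FPKM, COL3A1 went from 0.705 to 1.51, DCN from 0.0197 to 0.897 and LUM from 0.00783 to 0.282. COL1A1 went the other way, from 0.330 to 0.216. The sum of 4 melanocyte markers was 1.08 to 1.42 and 1.94 to 2.40 FPKM, with TYR at 0. That of 3 Merkel cell markers, KRT20 among them, was lower with dacomitinib, at 0.258 to 0.404 and 0.130 to 0.229 FPKM, with ATOH1 at 0. The sums of 3 leukocyte markers overlapped, at 0.0231 to 0.132 and 0.0125 to 0.0848 FPKM. Their part in the keratin results was not tested. In bulk RNA, fewer cells of a kind and less RNA per cell cannot be told apart.

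The basal keratins did not move as one. KRT14, the type I chain of the basal layer (ENSG00000186847, chromosome 17, 41582279 to 41586921, GRCh38), stood at 240.4, 251 and 225 FPKM in the controls and at 144, 116 and 131 with dacomitinib. All dacomitinib libraries lay below all controls, a log2(FPKM + 1) difference of -0.87 (SE 0.09, limma adjusted p = 0.000203), and -0.56 with TPM. KRT5, its type II partner (ENSG00000186081, chromosome 12, 52514575 to 52520687), was at 471, 457 and 426 FPKM in the controls and 399.9, 325 and 349.8 with dacomitinib. It was lower by the deposited scaling (-0.34, SE 0.09, limma adjusted p = 0.0139), but with TPM the difference was -0.02 (adjusted p = 0.774, with 0.00116 to 0.774 over its alternatives). The call was also lost without control library 1 (adjusted p = 0.0548) or dacomitinib library 3 (adjusted p = 0.0509), or with no filter on low values (adjusted p = 0.0604).

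KRT15, a basal type I keratin also known from hair follicle stem cells (ENSG00000171346, chromosome 17, 41513743 to 41522529), was at 148, 153 and 139 FPKM in the controls and at 168, 119.6 and 126 with dacomitinib. Its groups overlapped and it was not called (-0.11, SE 0.13, adjusted p = 0.509; 0.21 with TPM, adjusted p = 0.110). Dacomitinib library 1 was the highest of the 6 for KRT15, and without it the gene was called lower (-0.26, adjusted p = 0.0128). The same library was the highest of the treated ones for KRT13, KRT19, KRT5 and KRT14. Of the 3 basal keratins, 0 rose and 2 fell by the deposited scaling, with a median of -0.34. With TPM 1 fell, KRT14, and the median was -0.02. Beside this, 25.4% of all genes tested were higher and 34.8% lower, with a median of -0.06. With TPM these were 42.0%, 19.8% and 0.23.

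A ratio of a pair of genes within a library does not depend on the scaling between libraries. The log2 ratio of KRT5 to KRT14 was 0.97, 0.86 and 0.92 in the controls and 1.47, 1.48 and 1.41 with dacomitinib. Each treated library was thus above each control, and the ratio rose 1.45-fold. With 3 libraries in each group the smallest two-sided p of an exact permutation test is 0.100, and this ratio reached it.

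The clearest falls were in the simple epithelial pair. KRT18, the type I chain (ENSG00000111057, chromosome 12, 52948871 to 52952901), was at 61.7, 57.5 and 65.2 FPKM in the controls and 24.2, 24.3 and 24.4 with dacomitinib. KRT8, the type II chain (ENSG00000170421, chromosome 12, 52897187 to 52949954), was at 93.1, 89.6 and 103 FPKM and 44.1, 39.3 and 44.9. Neither gene's groups overlapped. KRT18 was 2.53-fold lower in mean FPKM, a log2 difference of -1.30 (SE 0.05, limma adjusted p = 4.61e-06; -1.01 with TPM). KRT8 was 2.23-fold lower, with a log2 difference of -1.14 (SE 0.07, limma adjusted p = 3.15e-05; -0.83 with TPM). Both genes lie side by side on opposite strands, and their extents, introns included, overlap by 1084 bases in the annotation. Whether counting used strand is not given. Of the 100-base stretches in KRT18 transcripts, 0% stand in another gene on either strand. Shorter shared stretches were not searched. The log2 ratio of KRT8 to KRT18 was 0.59, 0.64 and 0.66 in the controls and 0.87, 0.70 and 0.88 with dacomitinib, a shift of 0.18 (exact p = 0.100, the smallest possible).

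The other keratins of simple epithelia went differently. KRT7, a type II keratin of ducts and glands (ENSG00000135480, chromosome 12, 52232520 to 52252186), was at 123, 118 and 131 FPKM in the controls and 227, 184 and 210.0 with dacomitinib. That is 1.67-fold higher, with no overlap of the groups (log2 difference 0.73, SE 0.08, limma adjusted p = 0.000383; 1.05 with TPM). KRT19, a small type I keratin with almost no tail domain (ENSG00000171345, chromosome 17, 41523617 to 41528308), had the highest FPKM of all keratins in the controls, at 476, 462 and 455, and was at 443, 317 and 354 with dacomitinib. Its lower level sat close to the threshold (-0.34, SE 0.12, limma adjusted p = 0.0474). With TPM the difference was -0.02 (adjusted p = 0.874, with 0.00192 to 0.874 over its alternatives). The call was lost under 9 of 15 alternatives, among them leaving out control library 1 (adjusted p = 0.123), 2 (adjusted p = 0.0999) or 3 (adjusted p = 0.0895), or dacomitinib library 2 (adjusted p = 0.108) or 3 (adjusted p = 0.129). Within libraries, KRT7 to KRT19 moved on the log2 scale from -1.96, -1.97 and -1.79 to -0.97, -0.78 and -0.75, a 2.10-fold rise. Thus 1 of the 4 tested simple epithelium keratins rose and 3 fell, or 1 and 2 with TPM, with a median of -0.74 and -0.43. Over all genes tested, 25.4% were higher and 34.8% lower, or 42.0% and 19.8% with TPM. The medians over all genes were -0.06 and 0.23. KRT20, a marker of gut epithelium and Merkel cells, held 12 fragments in the 3 controls and 4 in the treated libraries.

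The annotation places an antisense gene, KRT7-AS, within KRT7. It overlaps KRT7 over 2401 bases and rose from 436 to 2021 fragments over the 3 libraries of a group. In the controls its level was 5.82 ± 0.885 FPKM and with dacomitinib 23.5 ± 1.15 (SD, n = 3; log2 difference 1.85, SE 0.10, limma adjusted p = 1.23e-05). Of the 100-base stretches in KRT7 transcripts, 4.26% also stand in KRT7-AS. Without strand, fragments from these shared stretches cannot be told apart. KRT7 itself had 22427 and 42989 fragments.

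**Figure D2:**
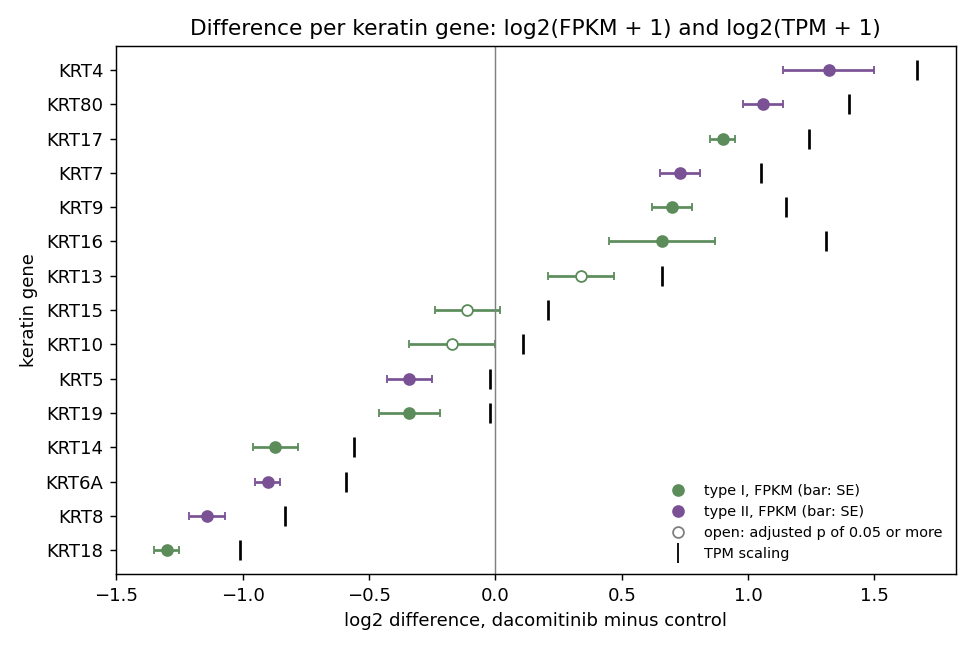
Log2 difference of each keratin gene, dacomitinib minus control, with its SE, for the deposited FPKM (circles, open where the adjusted p is 0.05 or more) and for TPM (black ticks). The values run from -1.30 for KRT18 to 1.32 for KRT4, and with TPM every tick lies to the right of its circle, so that KRT5 and KRT19 come to -0.02.

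Of the 5 keratins of wounded and activated epidermis, 3 were tested, and 2 rose and 1 fell, by the deposited scaling and with TPM. Over all genes tested, 25.4% were higher and 34.8% lower, or 42.0% and 19.8% with TPM. Only KRT6A was a tested gene of type II, and KRT16 passed the limit only through the dacomitinib libraries. A split by type can therefore not be read from them. KRT6A, the type II member (ENSG00000205420, chromosome 12, 52487174 to 52493257), was at 85.2, 80.4 and 80.5 FPKM in the controls and 45.0, 44.8 and 41.1 with dacomitinib. It was 1.88-fold lower without overlap of the groups (log2 difference -0.90, SE 0.05, limma adjusted p = 1.91e-05; -0.59 with TPM). KRT17, a type I keratin of this group that is also made in hair follicles (ENSG00000128422, chromosome 17, 41619441 to 41624842), was at 13.1, 14.3 and 13.5 FPKM and 27.5, 25.1 and 26.1. It was 1.92-fold higher (log2 difference 0.90, SE 0.05, limma adjusted p = 2.07e-05; 1.24 with TPM). The log2 ratio of KRT6A to KRT17 fell from 2.70, 2.50 and 2.58 to 0.71, 0.84 and 0.65, which is 3.62-fold and the largest shift among the 6 pairs apart from KRT6A to KRT16.

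KRT16, the usual type I partner of KRT6 (ENSG00000186832, chromosome 17, 41609778 to 41615899), was scarce, with 81 fragments in the 3 controls together and 214 in the treated libraries. Its levels were 0.285, 0.865 and 1.04 FPKM in the controls and 1.38, 1.78 and 1.95 with dacomitinib. The groups did not overlap, but the gene passed the limit of 1 FPKM through the dacomitinib libraries. It was called higher (0.66, SE 0.21, limma adjusted p = 0.0314), and not without control library 1 (adjusted p = 0.0570), dacomitinib library 2 (adjusted p = 0.0819) or 3 (adjusted p = 0.0947). Nor was it called after quantile normalization (adjusted p = 0.0739), with a pseudocount of 0.1 (adjusted p = 0.0506) or with no filter (adjusted p = 0.0750), with 0.00273 to 0.0947 over its alternatives. Set against KRT16, the log2 ratio of KRT6A fell from 8.22, 6.54 and 6.27 to 5.03, 4.66 and 4.40, and the highest control is the one with the lowest KRT16.

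KRT6A has close copies beside it, KRT6B (ENSG00000185479, chromosome 12, 52446651 to 52452126) and KRT6C (ENSG00000170465, chromosome 12, 52468516 to 52473785). KRT6B had 0 fragments in each library, which allows up to 3 in each, and KRT6C had 9 in the controls together and 2 in the treated libraries. The longest open reading frames in GENCODE release 29 are 1695 bases in all of them. KRT6A matches KRT6B at 97.5% and KRT6C at 97.9% of these bases. Of the 100-base stretches in KRT6A transcripts, 13.6% also stand in another gene, 13.1% in KRT6C, and the counting of reads that fit several genes is not described. For KRT6B and KRT6C, 24.6% and 24.7% of such stretches are shared, so most of each gene can still be read apart. The 60 bases in which they differ most, bases 663 to 722 of the reading frame, are shown to let the copies be compared, with the 9 positions that differ between any of them in capitals.
KRT6A: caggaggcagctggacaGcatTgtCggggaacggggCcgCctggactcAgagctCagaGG
KRT6B: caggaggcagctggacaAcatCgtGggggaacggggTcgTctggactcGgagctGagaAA
KRT6C: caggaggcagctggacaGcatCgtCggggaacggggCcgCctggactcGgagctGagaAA
KRT14, KRT16 and KRT17 are less alike: KRT14 matched KRT16 at 85.0% and KRT17 at 78.0% of aligned coding positions, and 4.69% of the 100-base stretches of KRT16 stand in another gene, against 0.147% for KRT17.

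The suprabasal pair KRT1 and KRT10 was weak. KRT10, its type I chain (ENSG00000186395, chromosome 17, 40818117 to 40822595), was at 7.64, 8.01 and 5.42 FPKM in the controls and 7.53, 5.12 and 5.71 with dacomitinib. The groups overlapped and it was not called (-0.17, SE 0.17, limma adjusted p = 0.415), also with TPM, where the difference was 0.11. The extents of KRT10 and TMEM99, introns included, overlap by 3490 bases on opposite strands. TMEM99 had 595 and 1000 fragments, close in number to the 668 and 665 of KRT10, and was called higher (0.50, SE 0.15, limma adjusted p = 0.0259). Of the 100-base stretches in KRT10 transcripts, 0% stand in another gene on either strand. Shorter shared stretches were not searched. KRT1, its type II chain, was listed at 0 in all controls and in dacomitinib library 2, and at 0.144 and 0.162 FPKM in the others, 13 fragments in all. KRT2, of the uppermost living layers, and KRT77, of sweat ducts, had fewer than 10 fragments over the 6 libraries. KRT9, a type I keratin of palm and sole skin (ENSG00000171403, chromosome 17, 41565841 to 41572058), was at 2.37, 2.04 and 1.99 FPKM in the controls and 3.84, 4.24 and 4.19 with dacomitinib. It was 1.92-fold higher (log2 difference 0.70, SE 0.08, limma adjusted p = 0.000407; 1.15 with TPM). Of 5 suprabasal keratins 2 were tested, and 1 rose and 0 fell, with either scaling. The shares over all genes tested were 25.4% higher and 34.8% lower, or 42.0% and 19.8% with TPM.

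The pair of the mouth and oesophagus lining held the largest rise. KRT4, its type II chain (ENSG00000170477, chromosome 12, 52806549 to 52814551), was at 21.8, 22.6 and 17.0 FPKM in the controls and 68.2, 43.0 and 48.4 with dacomitinib. The groups were far apart and the treated libraries were spread (log2 difference 1.32, SE 0.18, limma adjusted p = 0.000879; 1.67 with TPM). KRT13, its type I chain (ENSG00000171401, chromosome 17, 41500981 to 41505705), was more abundant, at 217, 231 and 202 FPKM and 336, 232 and 265. The lowest treated library barely exceeded the highest control, and the gene was not called (0.34, SE 0.13, limma adjusted p = 0.0651). It was called higher with TPM (0.66, adjusted p = 0.00147), median ratio scaling (adjusted p = 0.0253), quantile normalization (adjusted p = 0.00140), voom (adjusted p = 0.000228), a limit of 5 FPKM (adjusted p = 0.0455) and without dacomitinib library 2 (adjusted p = 0.0178). Over its alternatives the adjusted p was 0.000228 to 0.167. Their log2 ratio, KRT4 to KRT13, rose from -3.32, -3.35 and -3.57 to -2.30, -2.43 and -2.45, a 2.03-fold rise. Of the cornea keratins, KRT3 had 56 and 96 fragments and KRT12 1 and 7.

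KRT80, a type II keratin that joins desmosome-linked filaments (ENSG00000167767, chromosome 12, 52168996 to 52192000), was at 16.9, 15.0 and 18.0 FPKM in the controls and 33.3, 36.4 and 37.2 with dacomitinib. It was 2.14-fold higher, and no treated library came near a control (log2 difference 1.06, SE 0.08, limma adjusted p = 5.00e-05; 1.40 with TPM). LINC00592, on the other strand of the same stretch, had 23 and 85 fragments, few against 3202 and 7868 for KRT80.

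**Figure D3:**
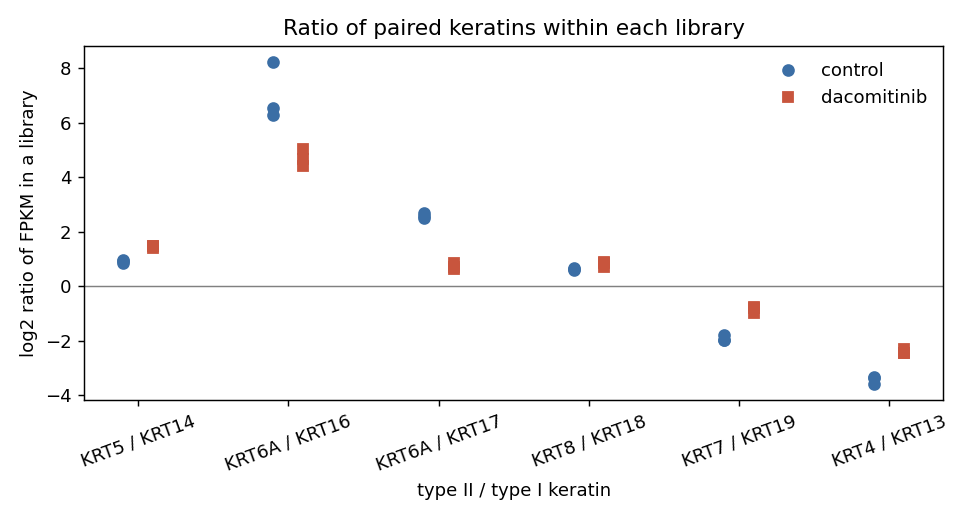
Log2 ratio of FPKM of a type II to a type I keratin within each library, for the 6 pairs in which both genes reached a mean of 1 FPKM. Circles are control and squares dacomitinib libraries; the groups are apart in each pair, with the smallest shift, 0.18, in KRT8 to KRT18 and a shift of -1.86 in KRT6A to KRT17.

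Of 8 pairs listed, 6 could be used. In all 6 the groups did not overlap, and each had an exact permutation p of 0.100, the smallest that 3 against 3 allows. After Benjamini-Hochberg adjustment over the pairs it was also 0.100. How often the ratios of other gene pairs separate was not examined. Whether such a count is particular to keratin pairs was thus not tested. For scale, 60.2% of all single genes tested were called. The ratio to the type I partner rose for KRT5, KRT8, KRT7 and KRT4 and fell for KRT6A with both partners. KRT6A enters 2 of the pairs, which are therefore not independent. The pair of KRT6A and KRT16 could be used only because of the treated libraries, in which KRT16 was above the limit, so its shift is a description and its p supports nothing.

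Summed over all keratin genes, the level was 1980.5, 1963 and 1885 FPKM in the controls and 1976, 1519.8 and 1673 with dacomitinib. The groups overlapped, with means of 1943 ± 51.0 and 1723 ± 232 (SD, n = 3; exact permutation p = 0.300). As TPM the sum was 6582 ± 67.6 and 7253 ± 694, in the other direction and without overlap (exact permutation p = 0.100). Keratin fragments made up 0.670 ± 0.0132% of all fragments on genes in the controls and 0.671 ± 0.0724% with dacomitinib. The spread among the treated libraries was thus wider than the difference of the means in the share of fragments. The log2 ratio of summed type I to type II FPKM was 0.52, 0.59 and 0.51 in the controls and 0.50, 0.33 and 0.36 with dacomitinib (exact permutation p = 0.100). The tested type I genes had a median log2 difference of -0.11 (0.21 with TPM) and the type II genes of 0.20 (0.52 with TPM), beside -0.06 (0.23) for all genes tested.

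**Figure D4:**
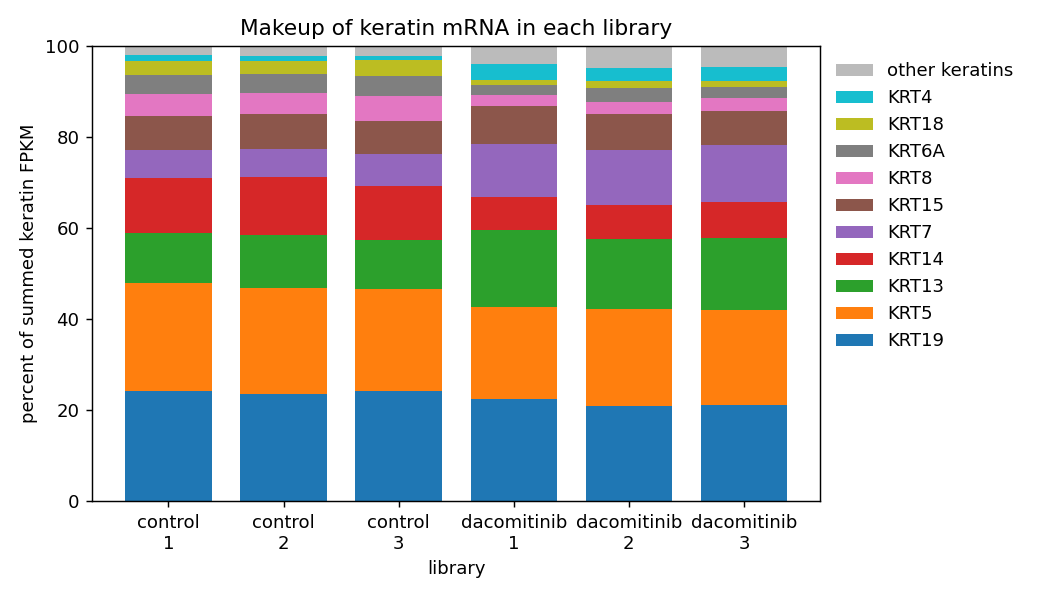
Percent of the summed keratin FPKM in each library held by the 10 most abundant keratins, with all other keratins in grey. KRT7 takes 12.0% on average with dacomitinib against 6.38% in controls, and KRT14 takes 7.60% against 12.3%.

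The makeup of keratin mRNA shifted more than its sum. KRT19 and KRT5 led in both groups, with 23.9 ± 0.335% and 23.2 ± 0.588% of the summed FPKM in the controls and 21.5 ± 0.842% and 20.8 ± 0.569% with dacomitinib (SD, n = 3). KRT14 was the third in the controls at 12.3 ± 0.458%, and with dacomitinib it took 7.60 ± 0.286%. KRT13 went from 11.1 ± 0.542% to 16.0 ± 0.901% and KRT7 from 6.38 ± 0.513% to 12.0 ± 0.550%, so that both stood above KRT14 in the treated libraries. KRT8 and KRT18 together with KRT6A gave way, at 4.91 ± 0.485%, 3.17 ± 0.269% and 4.22 ± 0.112% in the controls and 2.50 ± 0.237%, 1.43 ± 0.188% and 2.56 ± 0.347% with dacomitinib. KRT4 went from 1.05 ± 0.130% to 3.06 ± 0.343%. For KRT15 and KRT10 the shares of the groups overlapped. These shares add to a whole, so a rise in one lowers the rest, and they were not tested.

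The order of levels depends on gene length. The authors' length of KRT15 is 7069 bases, and that of KRT8 is 6881, where the longest protein-coding transcript of KRT8 in GENCODE release 29 is 2437 bases. KRT15 had nearly as many fragments in the controls as KRT19, 45950 and 47996, and yet 147 against 464 FPKM. A long model lowers a gene's FPKM alike in both groups and leaves its fold change in FPKM as it is.

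The expressed keratins lie in blocks. On chromosome 17, KRT13, KRT15, KRT19, KRT9, KRT14, KRT16 and KRT17 are 7 consecutive keratin genes within 124 kb (41500981 to 41624842), and all 7 reached 1 FPKM. Their calls were mixed: KRT9 and KRT17 rose, KRT14 and KRT19 fell and KRT13 and KRT15 were not called. KRT16, which reached the limit only through the dacomitinib libraries, was called higher and lost that call under 6 of 14 alternatives. Of the other 21 keratin genes of chromosome 17, only KRT10 was tested. On chromosome 12 the tested genes were KRT80 and KRT7 at one end, KRT6A and KRT5 side by side, KRT4, and KRT8 and KRT18 at the other end. These hold 3 neighbour pairs, and in each both genes moved the same way by the deposited scaling: KRT80 and KRT7 up, KRT6A and KRT5 down, and KRT8 and KRT18 down. With TPM, KRT5 was not called. On chromosome 17 the neighbours KRT9 and KRT14 went opposite ways. Over all genes tested, 25.4% were higher and 34.8% lower, and how often neighbouring genes move the same way was not examined.

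**Figure D5:**
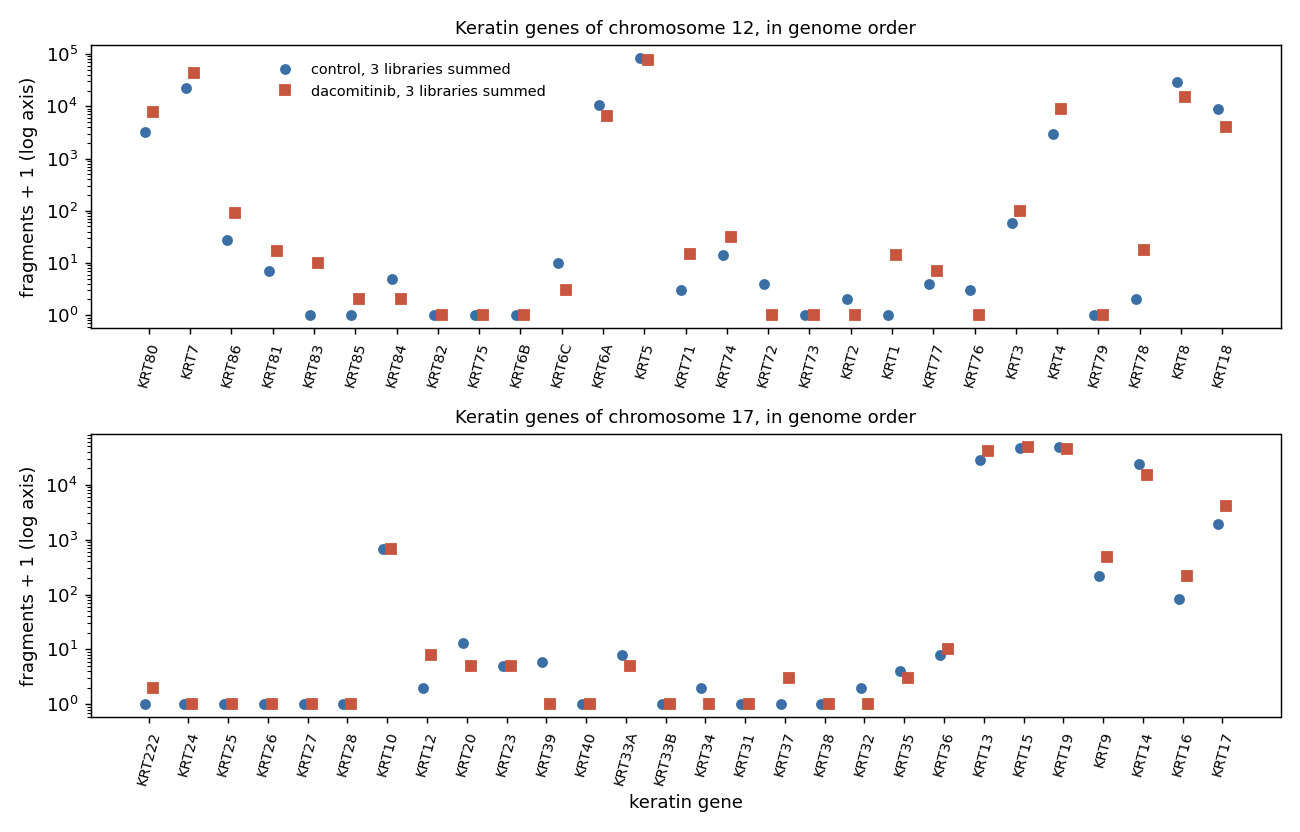
Fragments plus 1, on a log axis, summed over the 3 libraries of each group, for the 27 keratin genes of chromosome 12 and the 28 of chromosome 17 in genome order. Genes at the bottom have 0 fragments; the last 7 genes of chromosome 17 run from 81 (KRT16) to 47996 (KRT19) fragments in the controls.

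The other 40 keratin genes were below 1 FPKM. Of these, 14 had no fragment in any library, 23 had between 1 and 29 in all and 3 had 30 or more. Together they held 46 to 69 fragments in a control library and 92 to 119 in a dacomitinib library. They include 17 keratins of the hair shaft, with 60 and 133 fragments over the groups, and 10 of the root sheath, with 18 and 45. Among the 26 with a fragment, 3 were higher in every dacomitinib library than in any control (11.5%) and 1 was lower (3.85%), against 14.6% and 4.74% of all 19064 such genes in the table. KRT86, a hair keratin, was at 0.266, 0.163 and 0.313 FPKM in the controls and 0.824, 0.529 and 0.840 with dacomitinib. It overlaps KRT7 by 2887 bases on the same strand and the pseudogene KRT87P by 8402, and how its 26 and 89 fragments divide among these genes was not tested. The others were KRT71 with 2 and 14 fragments and KRT78 with 1 and 17, both higher, and KRT20, lower. KRT74, with 13 and 31 fragments, overlapped between groups.

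Promoters are shown for KRT4 and KRT9, which were higher under all alternatives that tested them, and for basal KRT5, from the RefSeq table (GRCh38.p14) of 250 bases before to 50 after each start. The table held 38 of the 55 keratin genes and, of the 15 tested, KRT4, KRT5, KRT8, KRT9 and KRT10. Searched on both strands were TGANTCA (bound by AP-1), GCCNNNGGC (AP-2), GGGCGG (SP1), TATAAA and TGTTTAC (FOXO). No keratin promoter of the 38 held TGANTCA, against 7.71% of all 35116 promoters, and 21 held TATAAA, against 11.5%. GGGCGG stood in 6 of the 38, against 45.0% of all promoters, GCCNNNGGC in 5, against 23.2%, and TGTTTAC in 1, against 3.42%. A match is a description only, and a missing one says only that these letters are not in this window. Capitals below mark matches: GCCNNNGGC at 105 bases before the start in KRT4 and at 138 in KRT9, which also holds GGGCGG on the other strand at 169. KRT5 held none of the 5 motifs. Neither did the window of KRT8, which is not shown and was lower under all alternatives. That window, chr12:52926420-52926719, lies inside the extent of KRT8 (52897187 to 52949954), and other starts of the gene were not searched. KRT10, also not shown, held only TATAAA. The regions are chr12:52814067-52814366 for KRT4, chr17:41572010-41572309 for KRT9 and chr12:52520345-52520644 for KRT5, all on the minus strand and written 5′ to 3′.
KRT4: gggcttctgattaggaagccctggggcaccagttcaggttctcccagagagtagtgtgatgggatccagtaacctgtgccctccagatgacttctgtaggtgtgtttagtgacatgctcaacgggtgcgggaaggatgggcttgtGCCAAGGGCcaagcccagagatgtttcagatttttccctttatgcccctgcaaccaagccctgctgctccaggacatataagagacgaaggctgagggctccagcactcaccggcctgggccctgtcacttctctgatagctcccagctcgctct
KRT9: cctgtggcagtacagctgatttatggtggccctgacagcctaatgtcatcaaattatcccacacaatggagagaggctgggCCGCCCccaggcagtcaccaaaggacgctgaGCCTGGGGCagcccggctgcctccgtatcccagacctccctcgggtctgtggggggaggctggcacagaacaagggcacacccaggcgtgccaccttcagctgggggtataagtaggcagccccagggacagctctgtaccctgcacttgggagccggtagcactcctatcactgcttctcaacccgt
KRT5: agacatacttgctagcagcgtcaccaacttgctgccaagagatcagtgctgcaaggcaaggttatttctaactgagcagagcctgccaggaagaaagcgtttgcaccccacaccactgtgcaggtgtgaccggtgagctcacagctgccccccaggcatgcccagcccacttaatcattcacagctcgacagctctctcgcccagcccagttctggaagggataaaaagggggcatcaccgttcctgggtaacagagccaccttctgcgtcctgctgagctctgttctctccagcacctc

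Genes that work with keratins were taken from lists without keratins. Of 11 tested anchors and crosslinkers of keratin filaments, 2 rose and 6 fell, with a median of -0.25 (3 and 2 with TPM, median 0.06). Of all genes tested, 25.4% were higher and 34.8% lower, with a median of -0.06 (42.0% and 19.8% with TPM, median 0.23). FLG, the filaggrin precursor that bundles keratins in the upper epidermis, was at 2.30, 2.58 and 2.52 FPKM in the controls and 8.91, 9.72 and 8.87 with dacomitinib (1.55, SE 0.06, limma adjusted p = 5.18e-06). PPL, periplakin, was the other that rose, by 0.21. PKP3, a desmosomal plakophilin, fell by 1.30, from 61.8, 56.3 and 65.6 to 28.0, 21.6 and 23.7 FPKM, and TCHP, trichoplein, fell by 0.55. DSP, desmoplakin, which ties keratins to desmosomes, had a difference of -0.34 (adjusted p = 0.000642; -0.03 with TPM, adjusted p = 0.703).

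Among 14 tested transcription factors that act on keratin genes, 5 were called higher and 3 lower, and their median was 0.00 (8 and 0 with TPM, median 0.29), beside the same shares and medians over all genes. ELF3, an epithelial ETS factor, was at 23.8, 24.8 and 21.3 FPKM in the controls and 72.3, 58.3 and 61.3 with dacomitinib (1.42, SE 0.09, limma adjusted p = 3.40e-05). HOXC13, which drives hair keratin genes, rose by 0.97, from 5.98, 7.25 and 7.21 to 16.4, 13.1 and 13.6 FPKM. The hair shaft keratins were below the limit and not tested, with 60 fragments in the controls together and 133 in the treated libraries. TFAP2C and GRHL2 were lower by the deposited scaling, at -0.38 and -0.37, and were not called with TPM, at -0.10 and -0.08. TP63, the master factor of stratified epithelia, was at -0.10 (SE 0.04, adjusted p = 0.0686) and at 0.21 with TPM, where it was called higher (adjusted p = 0.00319).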

How the data were processed

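Expression was measured by RNA sequencing in 3 control and 3 dacomitinib samples of HaCaT cells. The values are FPKM as deposited by the authors, with their gene lengths. The submitters' processing notes list build GRCh38 and the tools HISAT2, featureCounts, DESeq2 1.20.0, fastp and CASAVA, with no role or strand setting. From the values, FPKM times gene length was a whole number of fragments for 100% of values (tolerance 0.01). The denominator of the deposited FPKM was 0.952 ± 0.00449 times a library's recovered sum in controls and 1.07 ± 0.0244 times with dacomitinib (SD, n = 3), so a scaling between libraries was applied before deposit.

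FPKM are not counts, so limma 3.58.1 (R 4.3.3; trended prior variance) was run on log2(FPKM + 1) for all 13748 genes with a mean of at least 1 FPKM, with Benjamini-Hochberg adjustment over all of them and a threshold of 0.05. This scale understates the change of low genes. Differences are dacomitinib minus control, with SE. The limma step was also run on simulated counts in which few genes differed and each library was scaled to its own sum. That run does not cover the scaling between libraries or the many differing genes of these data. Per-library ratios and sums were compared by two-sided exact permutation tests. The keratin genes, lists and pairs were chosen with earlier results of these data known. Every keratin gene above the limit is named, and those below it where they had at least 30 fragments or groups that did not overlap. Of the lists without keratins, up to 2 members that rose and 2 that fell most are named. DSP, TP63, LMNA, VIM, GFAP, NEFM, IVL, CDH5, CLDN5, COL1A1, COL3A1, DCN and LUM were added after their values were seen. So were a few low keratins, KRT7-AS, TMEM99, KRT8P12 and LINC00592. Coordinates are those of the deposited table.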

Additional observations from a re-analysis of the deposited data

How the results depend on the processing

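The counts of 6 higher and 6 lower keratin genes ranged from 5 to 7 and from 4 to 7 over 15 alternatives (another pseudocount, filters, scalings, no trend, voom on the recovered fragments, a block, and each library left out). Of 223 values of single genes under these alternatives, 194 kept their direction and side of the threshold, 19 lost a call and 7 gained one. The other 3 changed sign and were not called with either setting: KRT10 was 0.11 with TPM, and KRT15 was 0.21 with TPM and 0.08 with quantile normalization. The genes that lost or gained a call were KRT5, KRT13, KRT15, KRT16 and KRT19. The median of type I genes, -0.11 as reported, was 0.21 with TPM and 0.08 with quantile normalization, and that of type II genes, 0.20 as reported, was 0.52 and 0.36. The difference in summed keratin FPKM, -219.9 as reported, was 671 in TPM, and it was -346 to -118 when 1 library was left out. The cause of the difference between scalings was not tested. Whether the column numbers pair the libraries is not known, since those of the treated columns match no label. Deviations of equally numbered libraries correlated at 0.0267, -0.0158 and 0.0402, and those of unequally numbered ones at -0.0761 to 0.0533. Such values cannot exclude a pairing. With these numbers as a replicate block, 6 keratin genes were higher and 6 lower, and no call of a keratin gene changed. Counting error limits KRT16 and the 40 genes below the limit, which had at most 152 fragments each.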

Other observations

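Of 15 other intermediate filament genes, 4 reached the limit for testing, of which 1 rose and 3 fell, against 25.4% and 34.8% of all genes tested. With TPM 1 rose and 3 fell too, against 42.0% and 19.8%. The nuclear lamin LMNB1 was at 63.6, 60.2 and 60.3 FPKM in the controls and 4.03, 4.50 and 5.47 with dacomitinib, LMNB2 had a log2 difference of -2.31 and LMNA one of -0.80 (-0.50 with TPM). BFSP1, a lens filament protein, was at 1.60, 1.25 and 1.34 FPKM in the controls and 4.94, 4.27 and 4.82 with dacomitinib. VIM, the mesenchymal filament gene, was at 0.0133 FPKM in the controls and listed at 0 with dacomitinib. GFAP, a filament gene of astrocytes, also lay below the limit and was at 0.0292, 0.0535 and 0.0674 FPKM in the controls and 0.197, 0.259 and 0.242 with dacomitinib, without overlap. Among all genes with a fragment and a mean under 1 FPKM, 14.6% were higher and 4.74% lower without overlap. NEFM had no fragment in any library.

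Of 14 listed differentiation genes that are no keratins, 3 were tested, and FLG rose. TGM1, a transglutaminase of the cornified envelope, was also called higher, but it passed the limit of 1 FPKM only through the dacomitinib libraries, at 0.548, 0.469 and 0.619 FPKM in the controls and 1.94, 2.55 and 1.42 with dacomitinib. IVL, involucrin, had a difference of -0.01 (adjusted p = 0.934; 0.27 with TPM). Among all genes tested, 25.4% were higher and 34.8% lower, or 42.0% and 19.8% with TPM. None of 112 keratin-associated protein genes, which code for matrix proteins of hair, was tested, and 105 had no fragment. They held 16 fragments in the controls together and 83 in the treated libraries. Over the whole table, 23580 to 24131 genes had a fragment in a control library and 25693 to 25715 in a dacomitinib library.

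Keratin pseudogenes took few fragments. Of 147, 89 had none, and together they held 839 in the 3 controls and 1406 in the treated libraries. Low genes leaned the same way across the table. Of those with a fragment and a mean under 1 FPKM, 14.6% were higher and 4.74% lower without overlap of the groups. KRT8P12 rose from 289 to 726 fragments while KRT8 fell, at 3.14, 3.14 and 3.29 FPKM in the controls and 8.50, 5.89 and 6.60 with dacomitinib (log2 difference 0.92, SE 0.12, limma adjusted p = 0.000644).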
